A study of Mus musculus with 4 samples.

Results

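Tropomyosins, tropomodulins and leiomodins are the proteins that lie along actin filaments and close or extend their slow-growing ends, and their RNA was compared between hearts with and without the transcription factor c-Jun in striated muscle. The members were the 10 genes Tpm1, Tpm2, Tpm3, Tpm4, Tmod1, Tmod2, Tmod3, Tmod4, Lmod2 and Lmod3, taken as every probe set, the group of short probes that reads 1 transcript or gene, that carries 1 of these symbols alone. They were 10 of 18193 genes and 29 of 45037 probe sets, with 14 for tropomyosins, 13 for tropomodulins and 2 for leiomodins. RNA came from the hearts of 2 Jun Δmu and 2 Jun f/f mice at 10 weeks of age, on a mixed 129/Ola-C57BL/6 background, with 1 Affymetrix mouse expression array for each heart. Both groups carry Jun alleles flanked by loxP sites, and Jun Δmu mice also carry Cre under the muscle creatine kinase promoter, which deletes the gene in heart and skeletal muscle cells and not in the other cells of the heart. The hearts were not subjected to pressure overload. The sample notes also describe plated ventricular cells, a conflict with the titles and methods that was not resolved, and littermates were used per the methods. With limma in place of the methods' t-test, 1 of the 10 genes, the β-tropomyosin gene Tpm2, was past the study's limits of fold and unadjusted p, and it was lower in Jun Δmu hearts. By the methods' t-test, 0 of the 10 genes were. The methods also admitted selected genes whose difference was found by quantitative RT-PCR, a route not applied here.

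A thin filament is an actin polymer with a tropomyosin dimer in each groove, where tropomyosin, held by troponin, moves to cover or expose the sites that myosin binds. Tropomodulins cap the end of the filament near the middle of the sarcomere, the contractile unit, and leiomodins, their larger relatives, start new filaments and let that end grow. In the heart the length of thin filaments depends on this balance, and the α-tropomyosin made from Tpm1 is the main tropomyosin of the adult mouse heart. Tropomyosin genes give many transcripts by alternative promoters and exons, in muscle and other cells alike, so probe sets of 1 gene may read different transcripts. Which transcripts each probe set reads was not given in the sources used here.

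Jun itself gave log2 signals of 7.02 and 7.14 on Jun Δmu arrays, against 8.30 and 8.999 on Jun f/f arrays by its brighter probe set, and 6.58 and 6.86 on Jun Δmu arrays, against 7.78 and 8.15 on Jun f/f arrays by its other probe set. Jun Δmu hearts thus held 33.8% and 42.3% of the Jun f/f signal by these 2 probe sets, both past the threshold described below and neither after adjustment (limma, adjusted p = 0.896). Median log2 signals lay between 5.45 and 5.47 on the 4 arrays, and their number limits the precision. Jun f/f replicate 1 correlated with the other arrays at 0.994 to 0.995, against up to 0.997 among the others, and had 104 probe sets that differed over 2-fold from the other arrays' mean, against 24 to 33 on those arrays. All 10 defining markers of cardiomyocytes were bright, with log2 signals from 12.77 to 14.84. Jun Δmu replicate 2 held the atrial gene Sln at 8.11, against 4.10 on Jun Δmu replicate 1 and 3.81 and 4.15 on Jun f/f arrays. The other listed atrial genes were also highest on that array. Myl7 was at 9.11, against 4.88 to 5.51 on the other arrays, and Myl4 at 9.02, against 5.69 to 6.03. Nppa was at 12.79, against 11.88 to 12.40. In whole hearts, fewer cells of a type and less RNA per cell cannot be told apart.

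RefSeq promoter windows on GRCm38.p6, from 250 bases before to 50 bases after a transcription start, were at hand for 8 of the genes in 10 windows, with Tmod3 and Lmod3 not among them. Each was searched on both strands for the AP-1 site TGANTCA and the related CRE motif TGACGTCA, the elements that c-Jun dimers bind, for the CArG box and the MEF2 site of muscle genes, and for the M-CAT motif CATTCC. An AP-1 site was in 1 of the 10 windows, the downstream of the Tmod2 starts, against 7.81% of all 32851 windows. M-CAT was in the windows of Tpm1 and Tmod1, against 14.7% of all windows. None of the 10 windows held the CRE, CArG or MEF2 motif, which 1.79%, 1.63% and 3.19% of all windows hold, and no window held more than 1 kind of motif. The windows of Tpm2 and Tpm1 are shown because the results turn on these tropomyosins, and that of Tmod2 because it holds the AP-1 letters. Capitals mark M-CAT, on the opposite strand, in Tpm1 and the AP-1 site in Tmod2. The windows are chr4:43523505-43523804 on the minus strand for Tpm2, chr9:67049164-67049463 on the minus strand for Tpm1 and chr9:75599084-75599383 on the minus strand for Tmod2.
Tpm2: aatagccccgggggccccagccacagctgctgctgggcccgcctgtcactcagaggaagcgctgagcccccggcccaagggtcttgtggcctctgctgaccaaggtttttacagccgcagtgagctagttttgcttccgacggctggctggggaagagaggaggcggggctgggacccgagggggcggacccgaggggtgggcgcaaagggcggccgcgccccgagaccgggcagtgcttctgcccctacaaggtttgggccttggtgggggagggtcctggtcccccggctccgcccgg
Tpm1: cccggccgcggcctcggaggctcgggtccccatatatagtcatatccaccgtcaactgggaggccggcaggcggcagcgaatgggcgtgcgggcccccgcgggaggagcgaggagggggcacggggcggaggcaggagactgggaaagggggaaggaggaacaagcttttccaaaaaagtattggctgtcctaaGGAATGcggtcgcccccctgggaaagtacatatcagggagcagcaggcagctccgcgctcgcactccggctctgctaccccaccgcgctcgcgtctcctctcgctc
Tmod2: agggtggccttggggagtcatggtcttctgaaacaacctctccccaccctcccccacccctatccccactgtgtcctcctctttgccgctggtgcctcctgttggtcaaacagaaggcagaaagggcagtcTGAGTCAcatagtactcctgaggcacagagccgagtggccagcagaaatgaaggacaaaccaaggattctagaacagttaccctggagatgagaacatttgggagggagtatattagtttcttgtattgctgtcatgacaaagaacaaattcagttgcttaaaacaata
The Tpm2 window holds none of the 5 motifs. A match is a description of these letters and not a site of binding, and other sequence of these genes was not searched.

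Tpm2 encodes β-tropomyosin, a form abundant in skeletal and smooth muscle and, in the mouse, in the heart before birth. By its brightest probe set, 1419738_a_at, its log2 signal was 8.70 and 8.86 on the Jun Δmu arrays, against 9.28 and 9.13 on the Jun f/f arrays. Both Jun Δmu hearts lay below both Jun f/f hearts. The means were 8.78 ± 0.11 in Jun Δmu and 9.20 ± 0.11 in Jun f/f hearts (SD, n = 2 each), a difference of -0.42 (standard error 0.11), or 74.7% of the level in Jun f/f hearts without the logarithm. This difference passed the threshold used here, the study's more than 1.3-fold (0.38 on the log2 scale) and unadjusted p under 0.05 but with the p from limma, and did not pass adjustment over all probe sets (limma, adjusted p = 0.896). It was the only 1 of the 29 member probe sets lower past the threshold, where 0.959% of all probe sets were. By limma 0 of the 29 were higher past it, against 0.568% of all, and 3 of the 29 had an unadjusted p under 0.05, against 5.16% of all. By the methods' t-test 0 of the 29 passed. Tpm2 is among the genes that the study had selected from these arrays, so that its direction on them is not independent evidence. By quantitative RT-PCR, a separate RNA assay, the study also reported lower β-tropomyosin RNA in unstimulated Jun Δmu hearts. The call of 1419738_a_at was lost when Jun Δmu replicate 1 (-0.34) or Jun f/f replicate 1 (-0.35) was left out, and without Jun f/f replicate 2 the count of member probe sets lower past the threshold was 5, where the count over all 45037 probe sets was 1986 in place of 432.

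The other 3 probe sets of Tpm2 were lower in both Jun Δmu hearts as well. Probe set 1425028_a_at gave 6.64 and 6.83 on Jun Δmu arrays, against 7.39 and 6.92 on Jun f/f arrays. Probe set 1419739_at gave 4.86 and 4.97 on Jun Δmu arrays, against 5.07 and 5.41 on Jun f/f arrays. Probe set 1449577_x_at, whose suffix marks probes that can also bind unrelated transcripts, gave 3.72 and 4.09 on Jun Δmu arrays, against 4.71 and 4.17 on Jun f/f arrays. In each of the 4 the highest Jun Δmu value stayed below the lowest Jun f/f value, whereas 16.7% of all probe sets were separate in this direction. The differences were -0.42, -0.33 and -0.54 for these 3 probe sets, with 95% intervals from -0.86 to 0.02, from -0.68 to 0.014 and from -1.08 to 0.0029, so that none passed. The last 2 had signals below the array median, where values of the method used here (robust multi-array average, RMA) compress differences. Which Jun f/f heart was higher differed between the probe sets. Jun f/f replicate 1 was the higher for 1419738_a_at, 1425028_a_at and 1449577_x_at, and replicate 2 for 1419739_at. Jun Δmu replicate 1 was the lowest array for all 4. Probe sets of 1 gene share its RNA and are not replicates. As the mean of its 4 probe sets the gene differed by -0.43, and as their median on each array by -0.38, just under 1.3-fold.

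**Figure D1:**
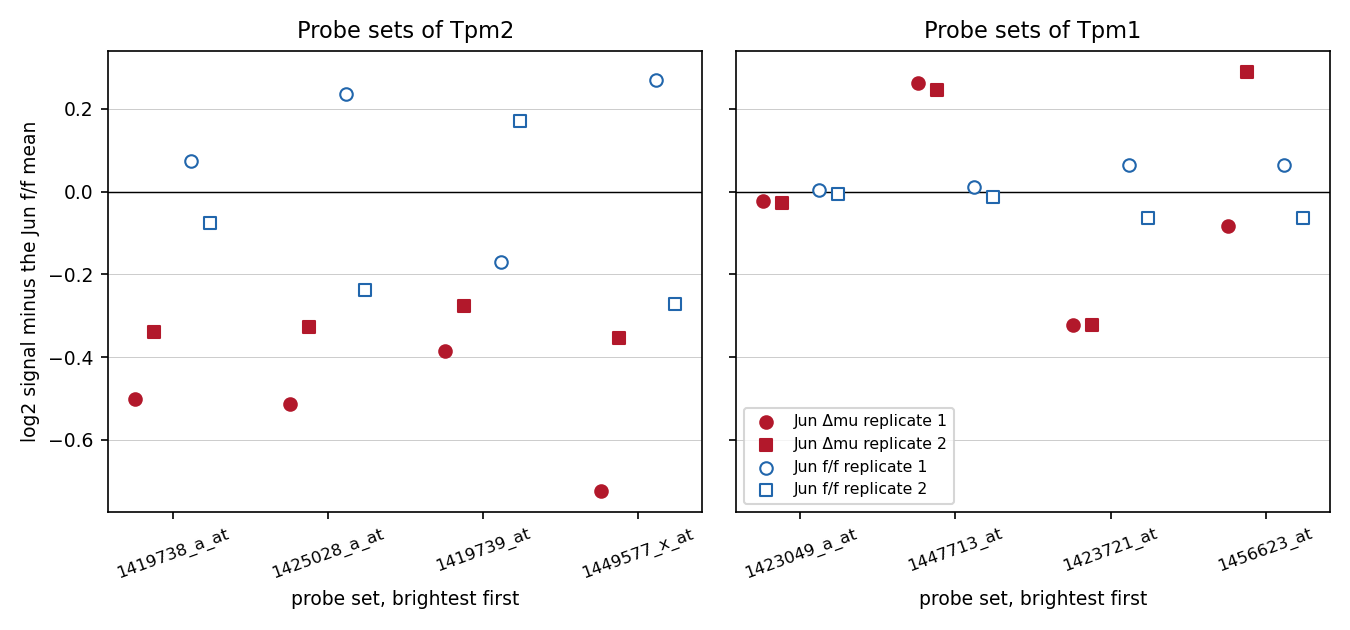
Log2 signal on each array minus the mean of the Jun f/f arrays for the 4 probe sets of Tpm2 and the 4 of Tpm1, brightest first; filled symbols are Jun Δmu and open symbols Jun f/f hearts, with circles for replicate 1 and squares for replicate 2. All 4 Tpm2 probe sets have both Jun Δmu hearts below both Jun f/f hearts, whereas the Tpm1 probe sets differ by -0.025, 0.25, -0.32 and 0.10.

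Tpm1, the gene of α-tropomyosin, had no common direction over its 4 probe sets. The brightest, 1423049_a_at, gave 14.60 and 14.60 on Jun Δmu arrays, against 14.63 and 14.62 on Jun f/f arrays. These values lay 0.24 to 0.27 below the brightest probe set of each array, so that a change in this signal may be understated there. The difference was -0.025 (95% interval -0.24 to 0.19), which holds no change of 1.3-fold, and the groups did not overlap. Probe set 1447713_at gave 10.997 and 10.982 on Jun Δmu arrays, against 10.747 and 10.723 on Jun f/f arrays. Here both Jun Δmu hearts were above both Jun f/f hearts, a difference of 0.25 (95% interval 0.040 to 0.47) that is smaller than 1.3-fold. Probe set 1423721_at ran the other way, with 7.02 and 7.02 on Jun Δmu arrays, against 7.41 and 7.28 on Jun f/f arrays. The Jun Δmu values are equal to the last deposited digit, and the difference was -0.32 (95% interval -0.56 to -0.088), also smaller than 1.3-fold. With Jun f/f replicate 2 left out it was -0.39 and past the threshold. The fourth, 1456623_at, gave 6.85 and 7.22 on Jun Δmu arrays, against 6.99 and 6.87 on Jun f/f arrays. Jun Δmu replicate 2 was the highest and Jun Δmu replicate 1 the lowest array for it, at a difference of 0.10. The probe sets 1447713_at and 1423721_at had an unadjusted p under 0.05 in opposite directions, each with an adjusted p = 0.896 (limma). Neither passed the threshold, and the difference between them was not tested.

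Within each array, the log2 ratio of Tpm2 to Tpm1 by their brightest probe sets, set against its Jun f/f mean, was -0.48 and -0.31 in Jun Δmu hearts and 0.070 and -0.070 in Jun f/f hearts. The difference was -0.39, close to that of Tpm2 alone, and with Tpm1 near the top of the signal range the ratio adds little to it. An exact permutation test over the 4 arrays (two-sided, p = 0.333) could not have given a smaller p.

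The tropomyosins best known from slow skeletal muscle and from cells other than muscle did not pass. Tpm3, which makes γ-tropomyosin of slow muscle and several non-muscle forms, gave 9.73 and 9.69 on Jun Δmu arrays, against 9.82 and 9.73 on Jun f/f arrays by its brightest probe set 1427260_a_at. That is a difference of -0.065 (95% interval -0.29 to 0.16). Its 5 probe sets ran from -0.16 to 0.087, with 4 below 0, of which 1436958_x_at at -2.2e-05 turned above 0 with quantile normalization or cyclic loess, and 1 of the 5 was lower without overlap, against 16.7% of all probe sets. Tpm4, a tropomyosin of the cytoskeleton in many cell types, has 1 probe set and gave 10.62 and 10.43 on Jun Δmu arrays, against 10.50 and 10.50 on Jun f/f arrays. Both Jun f/f hearts lay between the Jun Δmu hearts, and the difference was 0.025 (95% interval -0.23 to 0.28). The intervals of Tpm4 and of this brightest Tpm3 probe set end short of 1.3-fold on either side, whereas that of 1427567_a_at of Tpm3, from -0.45 to 0.13, does not.

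**Figure D2:**
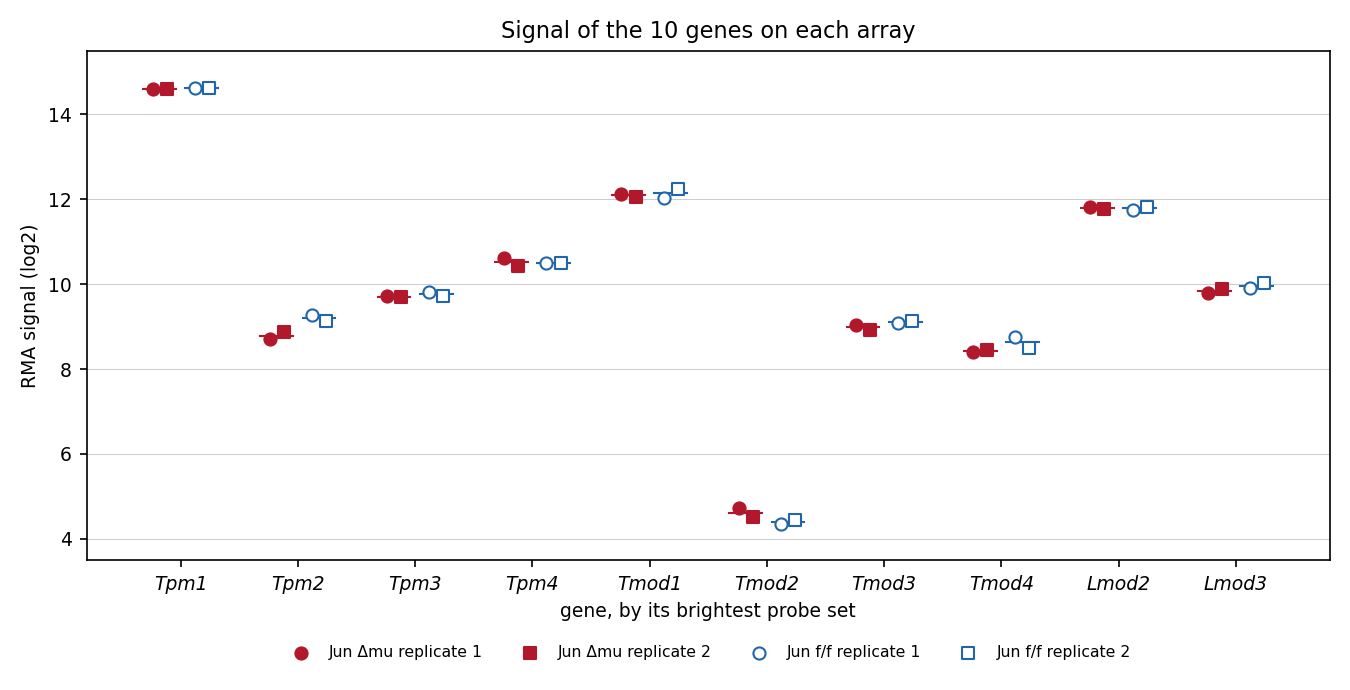
RMA signal (log2) of the 10 genes on each array, each by its brightest probe set; filled red symbols are Jun Δmu and open blue symbols Jun f/f hearts, circles stand for replicate 1 and squares for replicate 2, and a line marks each group's mean. Tpm2 is the gene with the widest gap between the group means, 8.78 against 9.20, and Tmod2 lies below 4.8 on every array. Signals of different genes also reflect their probes and give no order of RNA amounts.

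Tropomodulin 1, encoded by Tmod1, is the capping protein of thin filaments in heart muscle. It gave 12.12 and 12.05 on Jun Δmu arrays, against 12.03 and 12.25 on Jun f/f arrays, from 1 probe set. The groups overlapped, and the difference was -0.049 (95% interval -0.33 to 0.23), which ran from -0.16 to 0.063 as single arrays were left out. Its partner Lmod2 encodes leiomodin 2, which lengthens thin filaments in heart muscle and opposes capping. Lmod2 gave 11.83 and 11.76 on Jun Δmu arrays, against 11.75 and 11.83 on Jun f/f arrays. The difference was 0.0082 (95% interval -0.22 to 0.23), among the smallest of the 29 member probe sets. For both genes a change of 1.3-fold lies outside the 95% interval.

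The members best known from skeletal muscle did not pass. Lmod3, a leiomodin of skeletal muscle that the heart also expresses, gave 9.79 and 9.88 on Jun Δmu arrays, against 9.91 and 10.03 on Jun f/f arrays. Tmod4, the tropomodulin of skeletal muscle fibres, gave 8.40 and 8.46 on Jun Δmu arrays, against 8.77 and 8.51 on Jun f/f arrays. In both genes the Jun Δmu hearts lay below the Jun f/f hearts without overlap, as 16.7% of all probe sets did. The difference was -0.13 (95% interval -0.37 to 0.11) for Lmod3 and -0.21 (95% interval -0.50 to 0.087) for Tmod4, and the interval of Tmod4 still holds 1.3-fold. With Jun f/f replicate 1 left out the Tmod4 difference was -0.076, and with Jun f/f replicate 2 left out it was -0.34. Myh4, the myosin of the fastest skeletal fibres, stood at 3.11 to 3.35 by its brighter probe set over the 4 arrays, at the low end of the signal range. Of 17 measured markers of fast and slow skeletal muscle, 1 was higher past the threshold, the myosin light chain Myl1 at 1.04. The 2 lower past it were the calcium-binding Casq1 at -1.52 and Mybpc2 at -2.30. Over all probe sets 0.568% were higher and 0.959% lower past it. The median difference of the 17 was -0.067, against 0.00075 over all probe sets.

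Tmod3 and Tmod2 are neighbours on chromosome 9 and differ in where they are known to act. Tmod3, the tropomodulin found in most cell types, gave 9.04 and 8.92 on Jun Δmu arrays, against 9.08 and 9.13 on Jun f/f arrays by its brightest probe set 1423088_at. The Jun Δmu hearts were lower without overlap, as in 16.7% of all probe sets, at a difference of -0.12 (95% interval -0.36 to 0.11). Over its 5 probe sets the difference ran from -0.28 to 0.17 with 4 below 0, and the lowest belongs to 1439626_at, at 3.33 and 3.21 on Jun Δmu arrays, against 3.90 and 3.20 on Jun f/f arrays. That value rests on Jun f/f replicate 1 and on signals below the array median, and without that array the difference was 0.072. Without Jun f/f replicate 2 it was -0.63 and past the threshold. Tmod2, the tropomodulin of nerve cells, has 6 probe sets, and all 6 stayed below the array median on every array, between 3.16 and 4.73. Its brightest, 1431326_a_at, gave 4.73 and 4.51 on Jun Δmu arrays, against 4.36 and 4.44 on Jun f/f arrays, a difference of 0.22 (95% interval -0.053 to 0.50). The other 5 lay between -0.088 and -0.0083. At signals this low the arrays could not show whether Tmod2 RNA differed.

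Over all 29 probe sets the differences ran from -0.54 to 0.25 with a median of -0.058, against a median of 0.00075 over all probe sets, and 22 were below 0, where 49.6% of all probe sets were. Groups did not overlap for 11 of the 29 in the lower direction (37.9%, against 16.7% of all) and for 2 in the higher direction (6.9%, against 17.3% of all). Those 11 come from 6 genes, 4 of them from Tpm2 alone. Without Tpm2, 7 of the other 25 were lower without overlap (28%), the median difference was -0.033 and no difference was larger than 0.32. By the brightest probe set of each gene, 7 of the 10 genes were below 0 and 1 passed. The 5 genes with several probe sets differed in how well these ran together. All 4 probe sets of Tpm2 had 1 sign, Tpm3 and Tmod3 had 4 of 5 below 0, Tmod2 had 5 of 6 below 0, and Tpm1 had 2 on each side.

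**Figure D3:**
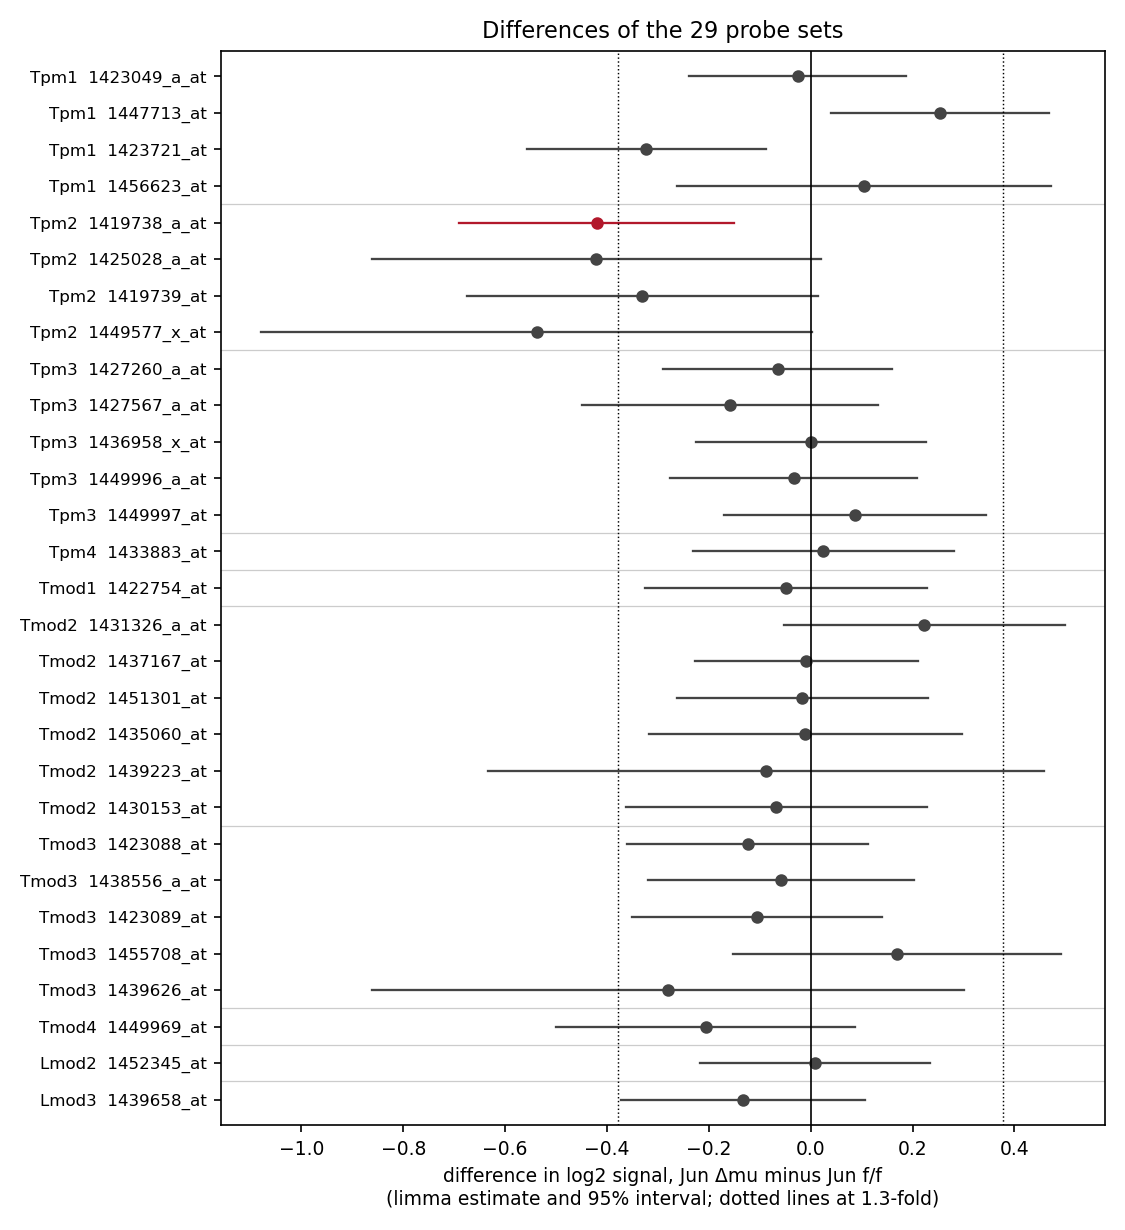
Difference in log2 signal, Jun Δmu minus Jun f/f, for each of the 29 probe sets with its 95% interval from limma, grouped by gene and ordered by signal; dotted lines stand at 1.3-fold. The red point is 1419738_a_at of Tpm2 at -0.42, the 1 probe set past the threshold, and the points of Tpm1 lie on both sides of 0.

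The partners of these proteins in the sarcomere were taken from 3 lists, with 1 probe set, the brightest, for each gene. Of 14 measured thin filament proteins, 0 were higher and 1 was lower past the threshold, with a median of 0.062. The 1 was Nrap, which anchors actin where filaments meet the membrane, at 11.17 and 11.25 on Jun Δmu arrays, against 11.63 and 11.57 on Jun f/f arrays, a difference of -0.39. Cardiac troponin C (Tnnc1), the calcium sensor beside tropomyosin, was at 14.01 and 14.06 on Jun Δmu arrays, against 14.31 and 14.21 on Jun f/f arrays, and its difference of -0.23 did not pass. Of the 14, 3 were lower without overlap, Nrap, Tnnc1 and Acta1, and 4 were higher without overlap, Tnni2, Tnnt2, Tnnc2 and Nebl, against 16.7% and 17.3% of all probe sets. Among these, Acta1 and Tnni2 were chosen after their values were seen. Skeletal muscle actin (Acta1) had the largest difference of the list, at 9.74 and 10.71 on Jun Δmu arrays, against 10.75 and 11.30 on Jun f/f arrays, and its -0.80 (95% interval -1.67 to 0.079) did not pass. The fast skeletal troponin I Tnni2 gave 6.83 and 6.57 on Jun Δmu arrays, against 6.31 and 6.40 on Jun f/f arrays, and its 0.34 did not pass either. For Acta1 the study reported lower RNA in Jun Δmu hearts at baseline by quantitative RT-PCR. Nrap no longer passed with Jun Δmu replicate 1 (-0.35) or Jun f/f replicate 1 (-0.36) left out. Of 20 measured genes of actin filament turnover, 0 were higher and 1 was lower, Twf2, an actin-binding protein that caps filaments, with 9.61 and 9.97 on Jun Δmu arrays, against 10.40 and 10.09 on Jun f/f arrays. Its difference of -0.45 fell short of the threshold with replicate number as a block, and also when Jun Δmu replicate 1 (-0.27) or Jun f/f replicate 1 (-0.30) was left out. Cofilin 2 (Cfl2), the muscle form of the protein that severs actin filaments, differed by -0.11 and did not pass. Of 15 measured thick filament and scaffold proteins, 0 were higher and 2 were lower past the threshold, Myot at -1.44 and Mybpc2 at -2.30, with a median of -0.087. Of these 15, 14 were below 0, where 49.6% of all probe sets were. Without overlap 8 were lower and 1 was higher, against 16.7% and 17.3% of all probe sets. Nrap, Twf2, Myot and Mybpc2 had been selected by the study from these arrays, and 1.53% of all probe sets passed in either direction. For Myot and Mybpc2 the study also reported lower RNA in unstimulated Jun Δmu hearts by quantitative RT-PCR.

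β-Tropomyosin is also a protein of smooth muscle. On the same arrays 1 of 11 markers of that cell type was lower past the threshold, against 0.959% of all probe sets. Calponin 1 (Cnn1) gave 4.67 and 5.11 on Jun Δmu arrays, against 5.81 and 5.31 on Jun f/f arrays, and was lower past the threshold at -0.67, although not by the methods' t-test, with replicate number as a block, or when Jun Δmu replicate 1 (-0.45) or Jun f/f replicate 1 (-0.42) was left out. Transgelin (Tagln), an actin-binding protein of smooth muscle, gave 7.66 and 8.24 on Jun Δmu arrays, against 8.76 and 8.28 on Jun f/f arrays. Smooth muscle actin (Acta2) gave 9.95 and 10.08 on Jun Δmu arrays, against 10.21 and 10.48 on Jun f/f arrays. In Cnn1, Tagln and Acta2, as in Myl9 and Mylk, the groups did not overlap, and in Cnn1, Tagln and Acta2 the heart with the lowest signal was Jun Δmu replicate 1, as for Tpm2. The smooth muscle myosin Myh11 overlapped, at 7.30 and 7.77 on Jun Δmu arrays, against 8.18 and 7.73 on Jun f/f arrays. Tagln at -0.57, Myh11 at -0.42 and Acta2 at -0.34 did not pass. Of the 11 markers, all measured, 8 were below 0, where 49.6% of all probe sets were. Without overlap 5 were lower and 0 higher, against 16.7% and 17.3% of all probe sets. Their median was -0.18, and the log2 of their summed signal was 11.83 to 11.97 in Jun Δmu and 12.10 to 12.13 in Jun f/f hearts. Endothelial markers ran the same way, with 5 of 7 lower and 0 higher without overlap, against the same 16.7% and 17.3%. In limma 0 of the 7 were past the threshold. Their median was -0.092, with a log2 summed signal of 11.88 to 11.90 in Jun Δmu and 11.94 to 12.06 in Jun f/f hearts. The part of smooth muscle or endothelial cells in the Tpm2 result was not tested. The summed signal of the 10 cardiomyocyte markers was 17.71 to 17.72 in Jun Δmu and 17.73 to 17.74 in Jun f/f hearts, with 0 past the threshold in limma, but most of these probe sets lie near the array maxima of 14.86 to 14.87, where a change may be understated. That of 10 fibroblast markers was 14.33 to 14.47 in Jun Δmu and 14.22 to 14.39 in Jun f/f hearts. The brightest of them, Dcn, weighs most in this sum and differed by -0.024. Their median difference was 0.11, with 8 of the 10 above 0. Without overlap 5 were higher, Col1a1, Lum, Tcf21, Dpt and Postn, and 0 lower, against 17.3% and 16.7% of all probe sets. Of the 10, 1 was higher past the threshold, the matrix protein Postn at 1.15, against 0.568% of all probe sets. Cnn1, Postn and another listed marker, Mylk, were among the genes the study had selected from these arrays. For Postn the study also reported more RNA, by quantitative RT-PCR, and more protein in sham-operated Jun Δmu hearts.

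**Figure D4:**
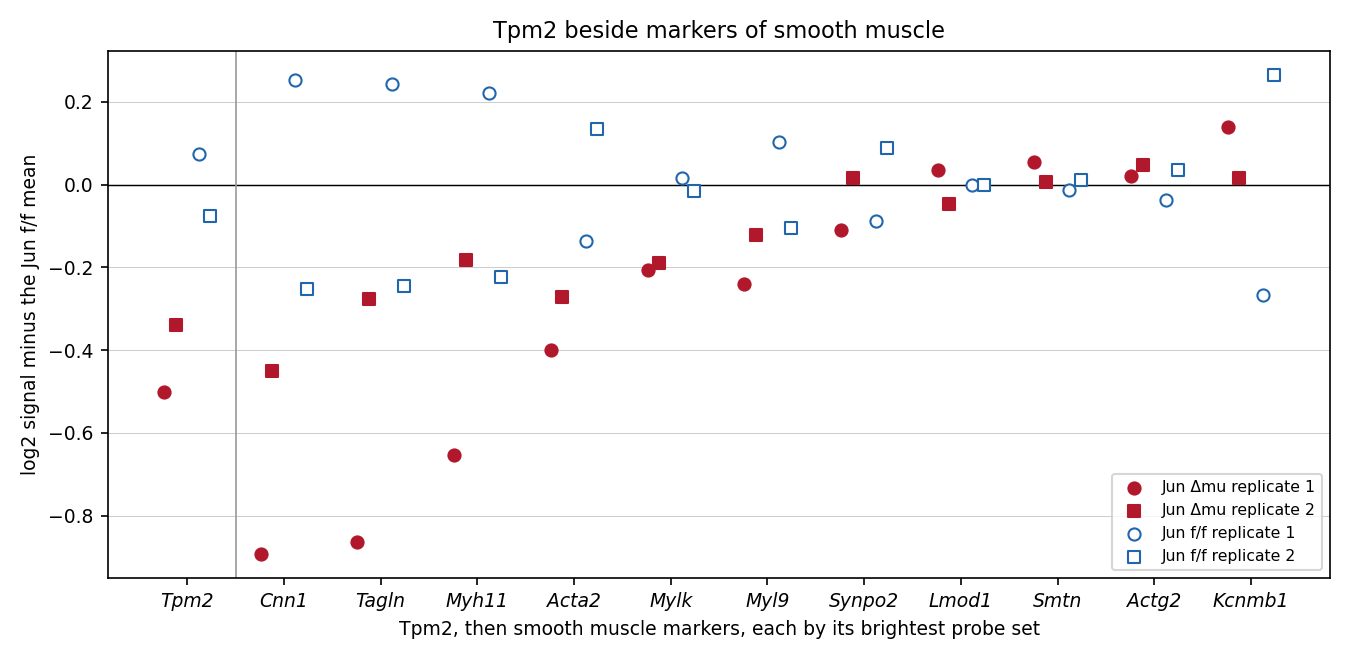
Log2 signal on each array minus the mean of the Jun f/f arrays for Tpm2 and for 11 markers of smooth muscle, each by its brightest probe set and the markers ordered by their difference; symbols are as in the plot of tropomyosin probe sets. Jun Δmu replicate 1 is the lowest array for Tpm2, Cnn1, Tagln, Myh11, Acta2, Mylk, Myl9 and Synpo2, and the groups overlap for Myh11, Synpo2, Lmod1, Smtn, Actg2 and Kcnmb1.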

How the data were processed

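RNA of each heart was taken up in TRIzol and read on an Affymetrix mouse expression array, per the labels and methods. The deposited values are log2 signals per probe set, made by the authors with RMA (background correction, normalization between arrays, summary per probe set). The processing notes name oligo, without versions. No detection calls came with them, and genome build is not given in the sources used here. Of 45101 probe sets, 64 AFFX controls were left out. The platform annotation names 1 gene for 34945 of the rest, several for 932 and none for 9160. All 45037 entered 1 fit in R 4.3.3 (limma 3.58.1, functions lmFit and eBayes, genotype as the only term, two-sided, Benjamini-Hochberg adjustment over all), with 95% intervals from the moderated statistic. A gene is represented by its probe set with the highest mean signal. The limma p-values and intervals draw on the spread between 2 hearts per genotype, moderated by the spread over all probe sets. Residual degrees of freedom were 2 and prior degrees of freedom 3.46. The members and lists were chosen with earlier results of these data known. Named genes are all members, list genes past the threshold, up to 4 bright genes per list, and markers where groups or arrays stand apart. Myh4 was added after its values were seen, as a low reference. Same-numbered arrays were checked for pairing: their deviations correlated at 0.028, so no pairing was used. Alternatives were the methods' t-test, a trended robust prior, the replicate block, 3 further normalizations, filters on dim and on _s_at and _x_at probe sets, means and medians over probe sets, and each array left out. Scripts were tested on simulated data. Figures were drawn with matplotlib 3.10.9.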

Additional observations from a re-analysis of the deposited data

How the results depend on the processing

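Tpm2 by 1419738_a_at kept its direction in every alternative, from -0.50 to -0.34 with single arrays left out, and fell short of the threshold by the methods' t-test, as the median of its probe sets (-0.38), and without Jun Δmu replicate 1 or Jun f/f replicate 1. Its dimmer probe set 1449577_x_at passed with a trended robust prior and with each further normalization, at -0.54 to -0.56. The count of member probe sets lower past the threshold was 0 by the t-test, 2 with the trended robust prior, quantile normalization, median centring or cyclic loess, and 0 to 5 with an array left out, the 5 without Jun f/f replicate 2. Over all probe sets, 256 were higher and 432 lower. These counts were 89 and 111 by the t-test, 158 higher without the dimmest 40% of probe sets, and 0 and 0 at an adjusted p under 0.05 in limma, where 2326 had an unadjusted p under 0.05 and the t-test also gave 0 adjusted. With an array left out they ran from 320 to 1466 higher and from 419 to 1986 lower, both highest without Jun f/f replicate 2. Thin filament proteins counted 2 lower with the trended robust prior and with the replicate block, 0 to 2 lower and 0 to 2 higher with an array left out. Genes of actin filament turnover counted 0 lower by the t-test, with the replicate block and without _s_at and _x_at probe sets, and 0 to 1 with an array left out. The replicate block left 1 member probe set lower and 254 higher and 429 lower over all, and changed no member's call. The labels do not pair the hearts by replicate number, and a pairing by litter was not tested. The log2 ratio of Tpm2 to Tpm1 ran from -0.48 to -0.31.

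Directions turned in some alternatives, none of them a value called in the main fit. Not all of these were near 0 in the main fit, where 1439626_at of Tmod3 was at -0.28. Tpm1 was at 0.0027 as the mean and 0.015 as the median of its probe sets, against -0.025 by its brightest. Tmod2 was at -0.10 as the median of its probe sets, against 0.22 by its brightest, 1431326_a_at. Both of these brightest probe sets kept their own direction in the other alternatives. Tpm3 by 1436958_x_at was at 0.037 with quantile normalization and 0.023 with cyclic loess. With an array left out, the range was -0.082 to 0.29 for 1456623_at of Tpm1, -0.069 to 0.12 for Tpm4, -0.16 to 0.063 for Tmod1 and -0.028 to 0.045 for Lmod2. For Tpm3 it was -0.046 to 0.046 for 1436958_x_at, -0.10 to 0.036 for 1449996_a_at and -0.0068 to 0.18 for 1449997_at. For Tmod2 it was -0.041 to 0.024 for 1437167_at, -0.075 to 0.042 for 1451301_at, -0.16 to 0.14 for 1435060_at, -0.38 to 0.20 for 1439223_at and -0.18 to 0.046 for 1430153_at. For Tmod3 it was -0.16 to 0.040 for 1438556_a_at and -0.63 to 0.072 for 1439626_at. A genotype left with 1 array borrows its spread from the other genotype in these fits. The cause of these shifts was not tested. Low signal limits Tmod2, the 2 dimmest probe sets of Tpm2 and 1439626_at of Tmod3.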
